A study of Mus musculus with 16 samples.

Results

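Untreated mast cells cultured from bone marrow of mice that lack Nbeal2 were compared with untreated mast cells of wild-type (WT) mice. The comparison rests on 8 libraries of polyadenylated RNA, 4 per genotype, out of 16 in the series. They were chosen by their labels, and all genes were tested. The other 8 libraries came from cultures of the same genotypes that received IL-33. They entered the filter on low counts, the scaling factors, the estimate of the spread and the last comparison below. Both genotypes have a C57BL/6 background. The first group is Nbeal2-/- without treatment and the second is WT without treatment. Which part of Nbeal2 was deleted, how old the cultures were and how much IL-33 was given is not known here. The labels do not tie replicates to separate animals, so the p-values reflect variation among these libraries alone, and part of it may be technical.

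NBEAL2 is a large BEACH-domain protein, a class of scaffolds that act in vesicle traffic. Platelets need it to form alpha granules, and its loss causes gray platelet syndrome in people. Mast cells are granule-rich cells of the tissues. They store histamine, proteases and the proteoglycan serglycin in secretory granules related to lysosomes, and they release them when IgE receptors are crosslinked. Their growth and survival depend on KIT, the receptor of stem cell factor.

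Library totals ran from 44109341 to 52066492 counts in Nbeal2-/- and from 39080187 to 54894255 in WT. Levels are given as CPM (counts scaled to a common library size of 1000000) scaled by TMM factors. Tests are edgeR quasi-likelihood tests, with p-values adjusted by Benjamini-Hochberg over all 15470 genes that passed a filter on low counts, and a gene is called when its adjusted p is below 0.05. In a principal component analysis of the 8 libraries the genotypes parted along the first component (46.7% of the variance). Along the second (20.2%) lay a gap between replicate 1 of both genotypes and the other 6 libraries, so printed counts are repeated without both replicates 1 where they move by more than 1.5 times. Transcripts of the Y chromosome summed to between 21.3 and 165 CPM in Nbeal2-/- and between 2.38 and 206 CPM in WT, and both genotypes held libraries with and without Xist, the transcript of the inactive X. Replicates 2, 3 and 4 of Nbeal2-/- and replicate 3 of WT held Y-linked transcripts together with Xist. The libraries of a genotype are therefore not all repeats of 1 culture.

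The title of the series names the cells as mast cells, while the cell type label expands the same abbreviation as mononuclear cells. Mast cell genes were abundant in every library. Fcer1a, the alpha chain of the IgE receptor, stood at 5226 ± 387 CPM in Nbeal2-/- and 5597 ± 442 CPM in WT (SD, n = 4 each, as in all such values here). Gata2, a transcription factor of mast cells and basophils, stood at 1833 ± 107 CPM in Nbeal2-/- and 1908 ± 44.2 CPM in WT. Neither gene passed the test, but Fcer1a passed without replicate 1 of Nbeal2-/- (adjusted p = 0.0342). Of 14 neutrophil markers 13 stayed below 1 CPM in every untreated library, as did 8 of 10 eosinophil markers and 15 of 17 lymphocyte and dendritic cell markers.

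The targeted gene checked the labels. Nbeal2 (chr9:110624789-110654161, minus strand, GRCm38) had 85.0, 103, 95.7 and 87.2 CPM in the 4 Nbeal2-/- libraries, against 224, 448, 413 and 423 CPM in the 4 WT libraries. The groups did not overlap, and the lowest WT library was replicate 1. The transcript was 4.07-fold lower in Nbeal2-/- (log2 fold change -2.02, SE 0.17, adjusted p = 1.0e-06). Counts over the whole gene do not show whether the remaining RNA encodes a protein.

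Of the 15470 genes tested, 5549 were called, which is 35.9% of them. They split into 2840 higher in Nbeal2-/- (18.4%) and 2709 lower (17.5%), and the median log2 fold change over all genes was -0.0081. Most differences were small. Over 2-fold changes were called for 521 genes (3.37%), of which 139 were higher (0.899%) and 382 lower (2.47%). The libraries of the 2 genotypes did not overlap for 4365 genes (28.2%). With the Y-linked level as a covariate 5487 genes were called. A fit of the 8 untreated libraries alone, on the same genes, called 3836, of which 1898 were higher and 1938 lower. Any list of genes described below is to be read against the shares of the fit of all 16 libraries. Lists are given by counts and median only.

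**Figure D1:**
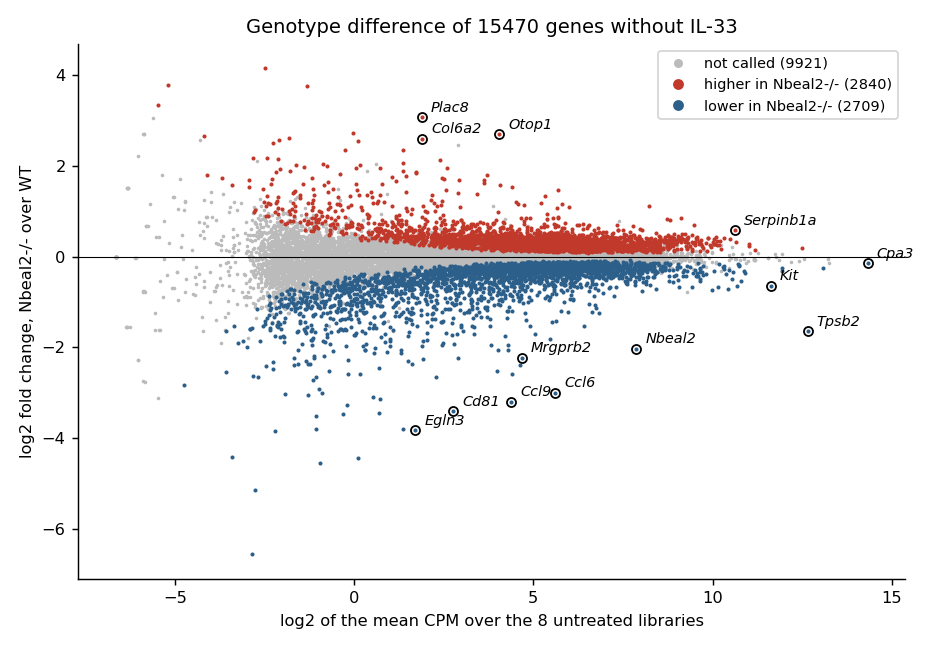
Each point is 1 gene, with the log2 of its mean CPM over the 8 untreated libraries on the x axis and its log2 fold change, Nbeal2-/- over WT, on the y axis. Called genes are red where higher (2840) and blue where lower (2709), and the over 2-fold falls outnumber the over 2-fold rises by 382 to 139.

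The largest falls included genes of secreted, surface and intracellular proteins. The CC chemokine gene Ccl9 had 2.88, 6.04, 3.75 and 3.68 CPM in Nbeal2-/- libraries, against 35.3, 39.4, 37.3 and 38.2 CPM in WT. It was 9.13-fold lower (log2 fold change -3.19, SE 0.16, adjusted p = 1.81e-09). Its neighbour and relative Ccl6 had 9.74, 12.6, 11.8 and 9.1 CPM in Nbeal2-/-, against 82.9, 95.1, 90.3 and 76.9 CPM in WT. That is 7.98-fold lower (log2 fold change -3.00, SE 0.13, adjusted p = 8.01e-11). Every Nbeal2-/- library lay far below every WT library for both genes. They are similar in sequence, so reads may be shared between them.

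Cd81, a tetraspanin that organises receptors in the plasma membrane, had 1.19, 0.988, 1.24 and 1.24 CPM in Nbeal2-/- and 13.2, 8.79, 13.2 and 14.2 CPM in WT. It was 10.6-fold lower (log2 fold change -3.41, SE 0.14, adjusted p = 7.14e-11). Egln3, an oxygen-sensing prolyl hydroxylase that is itself induced by hypoxia, stood at 0.432 ± 0.256 CPM in Nbeal2-/- and 6.05 ± 3.44 CPM in WT (log2 fold change -3.82, SE 0.64, adjusted p = 0.000487). WT libraries spread widely for it, between 1.61 CPM in replicate 3 and 9.36 CPM in replicate 1. The glycoprotein gene Cd24a fell 5.76-fold, the guanylate-binding protein gene Gbp9 6.26-fold and the focal adhesion gene Tns1 5.96-fold. Dgki, a diacylglycerol kinase, fell 5.20-fold, the nuclease gene Dnase2b 5.13-fold and Nhsl2 4.73-fold.

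Fewer genes rose by as much. Plac8 had 4.32, 6.92, 9.06 and 6.08 CPM in Nbeal2-/- libraries, against 0.71, 0.569, 0.865 and 0.963 CPM in WT, so the groups stood far apart. It was 8.41-fold higher (log2 fold change 3.07, SE 0.25, adjusted p = 2.76e-07). Otop1, which encodes a proton channel, had 28.2, 28.3, 31.7 and 26.9 CPM in Nbeal2-/- and 4.97, 3.98, 4.62 and 4.21 CPM in WT. It was 6.46-fold higher (log2 fold change 2.69, SE 0.10, adjusted p = 1.33e-11), and its libraries agreed closely within each genotype. The collagen gene Col6a2 rose 6.05-fold, the alpha-catenin gene Ctnna2 4.37-fold and Eomes, a T-box transcription factor of lymphocytes, 3.87-fold. C1qtnf1 rose 3.63-fold, the interferon-inducible Ifi27l2a 3.60-fold, the T cell receptor gamma constant gene Trgc1 3.46-fold, Tmem176b 3.34-fold and the sialomucin gene Podxl 3.25-fold. Trgc1 belongs to a family of near-identical segments.

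**Figure D2:**
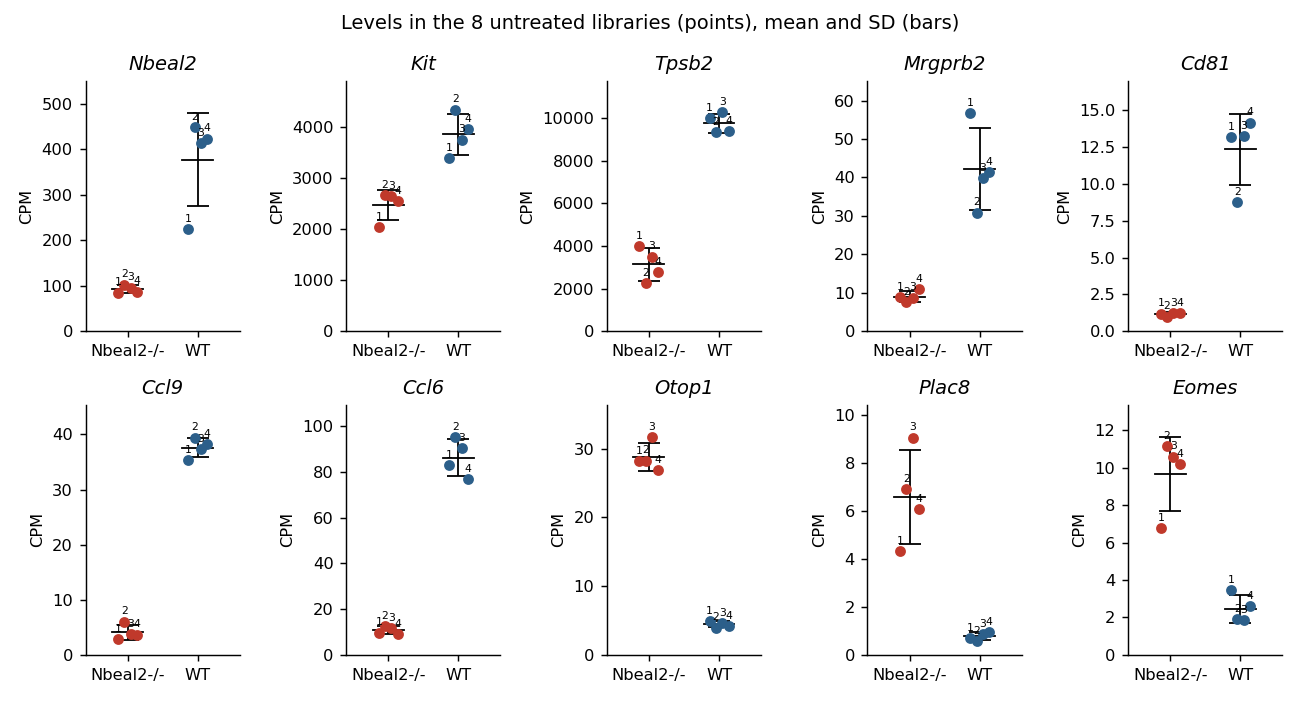
CPM of 10 genes in each untreated library, Nbeal2-/- in red on the left and WT in blue on the right, with replicate numbers beside the points. Horizontal bars are means and vertical bars are SD over 4 libraries. The genotypes do not overlap in any of the 10 panels.

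By amount of RNA, the largest differences were in mast cell products. Tpsb2, the tryptase mouse mast cell protease 6, had 3993, 2262, 3502 and 2784 CPM in Nbeal2-/- libraries, against 10020, 9343, 10280 and 9402 CPM in WT. The fall was 3.11-fold (log2 fold change -1.64, SE 0.13, adjusted p = 3.75e-07). Kit had 2036, 2656, 2645 and 2544 CPM in Nbeal2-/- and 3381, 4335, 3750 and 3954 CPM in WT, and fell 1.56-fold (-0.64 on the log2 scale, SE 0.09, adjusted p = 3.25e-05). Replicate 1 was the lowest library of each genotype for Kit. Il1rl1, the IL-33 receptor chain, fell 1.25-fold, at 3491 ± 276 CPM in Nbeal2-/- and 4370 ± 301 CPM in WT (adjusted p = 0.000612). The antiviral gene Ifitm1 fell 1.19-fold, while the translation elongation factor gene Eef1a1 rose 1.15-fold. In bulk RNA, fewer cells of a type and less RNA per cell cannot be told apart.

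Of 23 tested genes of mast cell identity, 13 fell, none rose and 10 did not pass, with a median log2 fold change of -0.24. The counts of falls ran from 11 to 16 when single libraries were left out. Mrgprb2, the receptor through which peptides and drugs activate mouse mast cells without IgE, had 8.79, 7.59, 8.75 and 10.9 CPM in Nbeal2-/- and 56.7, 30.8, 39.8 and 41.3 CPM in WT. It was 4.69-fold lower (log2 fold change -2.23, SE 0.20, adjusted p = 9.2e-07), with every Nbeal2-/- library below every WT library. Its relative Mrgprb1 had 0 counts over the 4 Nbeal2-/- libraries and 48 counts over the 4 WT libraries, at least 16.5-fold lower in Nbeal2-/- against a floor of 3 counts over the group. Reads may be shared between such receptors. Hpgds, which makes prostaglandin D2, fell to 58 ± 3.93 CPM in Nbeal2-/-, against 80.5 ± 5.62 CPM in WT. Slc18a2, the transporter that fills granules with histamine, fell 1.15-fold.

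Genes of the IgE receptor and its proximal signalling had 2 risen and 11 fallen of 23, with a median of -0.12. The receptor beta chain Ms4a2 stood at 1591 ± 44 CPM in Nbeal2-/- and 1799 ± 58.5 CPM in WT (adjusted p = 0.00979). Plcg1, the phospholipase that starts the calcium signal, fell 1.32-fold. Both main phosphatases that restrain the receptor moved, in opposite directions. Inpp5d, which encodes SHIP1, fell to 649 ± 64.9 CPM in Nbeal2-/-, against 867 ± 41 CPM in WT. Ptpn6, which encodes SHP-1, had 337, 298, 318 and 289 CPM in Nbeal2-/- and 214, 206, 210 and 203 CPM in WT, and rose 1.49-fold (log2 fold change 0.58, SE 0.05, adjusted p = 2.32e-07).

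Granule proteases fell unequally. All 5 tested tryptase and carboxypeptidase A3 genes fell, with a median log2 fold change of -1.13. Besides Tpsb2 they included Tpsab1, mouse mast cell protease 7, at 0.274 ± 0.080 CPM in Nbeal2-/- and 2.95 ± 0.858 CPM in WT (log2 fold change -3.44, SE 0.23, adjusted p = 2.99e-08), whose reads may be shared with Tpsb2. Transmembrane tryptase Tpsg1 fell 1.26-fold. Cpa3, the granule carboxypeptidase, had 20240, 17800, 20370 and 19430 CPM in Nbeal2-/-, against 23030, 20810, 21120 and 21340 CPM in WT. Its 1.11-fold fall (log2 fold change -0.15, SE 0.05, adjusted p = 0.0251) is narrow. It lost its call in a fit of the 8 untreated libraries alone (adjusted p = 0.0931), with no filter on low counts (adjusted p = 0.107), without replicate 1 of WT (adjusted p = 0.0640), without replicate 2 of Nbeal2-/- (adjusted p = 0.0804) and without replicate 4 of Nbeal2-/- (adjusted p = 0.0507).

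Among 9 genes of the chymase locus 1 rose (11.1%) and 2 fell (22.2%), near the 18.4% and 17.5% over all genes, with a median of 0.002. Without replicate 1 of WT 2 rose, and without replicate 4 of Nbeal2-/- or in a fit of the 8 untreated libraries alone 1 fell. Cma1, a chymase that cleaves angiotensin, fell to 7964 ± 1091 CPM in Nbeal2-/-, against 9429 ± 431 CPM in WT (adjusted p = 0.0138), and lost its call without replicate 4 of Nbeal2-/- (adjusted p = 0.0517) and in the fit of 8 libraries (adjusted p = 0.0646). Of 5 granzyme and perforin genes 2 fell, or 1 in the fit of 8 libraries and without any 1 of 5 libraries (replicates 1 and 3 of WT and replicates 1, 2 and 3 of Nbeal2-/-). Gzmb, a cytotoxic granule protease that cultured mast cells also make, had 1119, 943, 1039 and 1117 CPM in Nbeal2-/- and 1814, 1580, 1782 and 1698 CPM in WT. It fell 1.63-fold (-0.70 on the log2 scale, SE 0.06, adjusted p = 7.28e-07). Of 12 protease inhibitor genes of the serpin family 2 rose (16.7%) and 1 fell (8.33%), no more than the 18.4% and 17.5% over all genes. Serpinb1a, an inhibitor of neutrophil-type proteases, rose to 1906 ± 176 CPM in Nbeal2-/-, against 1271 ± 105 CPM in WT. Serpinb2, plasminogen activator inhibitor 2, fell 3.86-fold. Reads of the chymase, tryptase and granzyme families may be shared among near-identical members.

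Of 26 genes of serglycin, heparin and chondroitin sulphate synthesis 3 rose and 9 fell, with a median of -0.11. The sulphotransferase Ndst2, needed for mast cell heparin, stood at 642 ± 12.3 CPM in Nbeal2-/- and 857 ± 69 CPM in WT (adjusted p = 1.84e-05). Extl3, which primes heparan sulphate chains, fell 1.75-fold, Hs3st1 1.35-fold and the chondroitin sulphate enzyme gene Csgalnact2 1.38-fold. Of 12 amine genes 3 rose and 6 fell. The serotonin transporter gene Slc6a4 fell 3.28-fold, from a low level on either side, 0.85 ± 0.23 CPM in Nbeal2-/- and 2.78 ± 0.481 CPM in WT. Hrh4, a histamine receptor of mast cells, fell 1.64-fold.

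**Figure D3:**
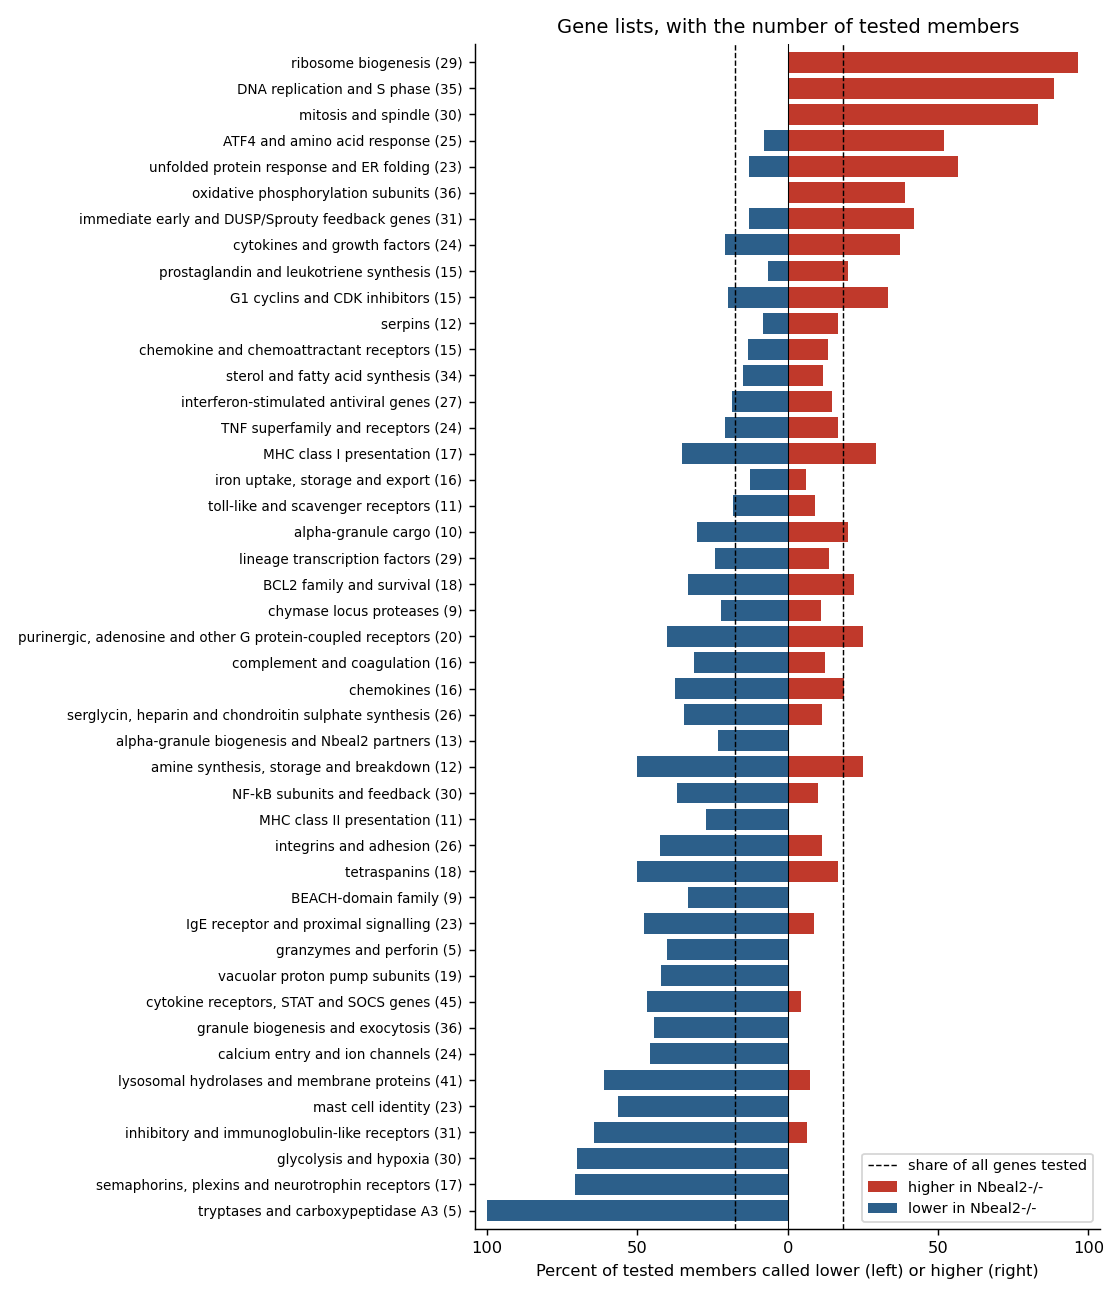
Percent of the tested members of each gene list called lower (blue, left) or higher (red, right) in untreated Nbeal2-/- cells, with the number of tested members in brackets. Dashed lines mark the shares over all genes tested, 17.5% lower and 18.4% higher. Lists are sorted by the difference of both shares, from ribosome biogenesis at the top to the tryptases at the bottom.

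Other BEACH-domain genes did not rise. Of 9 tested, the targeted Nbeal2 included, 3 fell (33.3%, against 17.5% over all genes), and 6 fell without replicate 1 of WT. Lyst, mutated in Chediak-Higashi syndrome with its giant granules, had 30.4, 48, 45.4 and 40.5 CPM in Nbeal2-/- and 55.9, 80.5, 60.4 and 76.9 CPM in WT. It fell 1.66-fold (-0.73 on the log2 scale, SE 0.12, adjusted p = 0.000277) with no overlap. Nbeal1, the closest relative of Nbeal2, fell to 23.8 ± 4.14 CPM in Nbeal2-/-, against 31.8 ± 6.51 CPM in WT (adjusted p = 0.0177). Its call was lost without replicate 1 of Nbeal2-/- (adjusted p = 0.0517), without replicate 2 of WT (adjusted p = 0.0780), in a fit of the 8 untreated libraries alone (adjusted p = 0.0854) and with no filter on low counts (adjusted p = 0.0518).

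Of 13 genes of alpha-granule biogenesis and NBEAL2 partners none rose and 3 fell (23.1%, against 17.5% over all genes), all by less than 1.2-fold. They were Vps11 and Vps18, subunits shared by the HOPS and CORVET tethers, and Vipas39, a partner of VPS33B in alpha-granule formation. The count is fragile, at 6 without replicate 1 of WT or of both genotypes and 1 without replicate 2, 3 or 4 of WT. In a fit of the 8 untreated libraries alone none was called, with an adjusted p of 0.0516 for Vps11, 0.0836 for Vps18 and 0.119 for Vipas39. With no filter on low counts Vps18 had 0.0974 and Vipas39 0.136. Of 10 alpha-granule cargo genes 2 rose and 3 fell. Vwf, the von Willebrand factor gene, had 96.5, 128, 107 and 104 CPM in Nbeal2-/- and 163, 218, 203 and 209 CPM in WT, and fell 1.82-fold (-0.87 on the log2 scale, SE 0.09, adjusted p = 2.55e-06). The tetraspanin gene Cd9 rose 1.24-fold.

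Genes of the secretory and lysosomal machinery fell more often than genes at large. Of 36 granule biogenesis and exocytosis genes 16 fell (44.4%) and none rose, or 1 rose without replicate 4 of WT or replicate 1 of Nbeal2-/-, with a median of -0.13. Mlph, melanophilin, which links RAB27 granules to myosin, had 10.8, 19.7, 19.5 and 15.1 CPM in Nbeal2-/- and 36.6, 38.8, 32.4 and 45.5 CPM in WT. That was a 2.35-fold fall (log2 fold change -1.23, SE 0.17, adjusted p = 6.39e-05) with no overlap between genotypes. Rab27b, a GTPase of mast cell degranulation, stood at 284 ± 9.08 CPM in Nbeal2-/- and 355 ± 15.7 CPM in WT. Rab32, a GTPase of lysosome-related organelles, fell 1.33-fold and the RAB27 effector gene Sytl3 1.24-fold.

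Lysosomal hydrolase and membrane protein genes had 3 risen and 25 fallen (61.0%) of 41, with a median of -0.20. Psap, the precursor of the saposins, had 244, 226, 231 and 214 CPM in Nbeal2-/- and 344, 326, 331 and 328 CPM in WT, a 1.45-fold fall (log2 fold change -0.54, SE 0.04, adjusted p = 1.41e-07). Scarb2, the lysosomal membrane protein LIMP-2, fell 2.23-fold, and Glb1, beta-galactosidase, 2.21-fold. Against the list's direction, Ctsc, the protease that activates granule serine proteases, rose to 290 ± 13.9 CPM in Nbeal2-/-, against 222 ± 12.8 CPM in WT. Of 19 vacuolar proton pump subunits 8 fell and none rose, and 4 fell when only the 8 untreated libraries were fitted. Atp6v0a1 had 44.4, 47.1, 44.9 and 46 CPM in Nbeal2-/- and 71.7, 75.2, 79 and 77.8 CPM in WT (log2 fold change -0.73, SE 0.04, adjusted p = 4.6e-09). The catalytic subunit gene Atp6v1a fell 1.25-fold.

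Besides Ccl6 and Ccl9, 4 more of 16 chemokine genes fell and 3 rose. Without replicate 2 of WT or replicate 1 of Nbeal2-/-, and in a fit of the 8 untreated libraries alone, 1 rose. Ccl4, an inflammatory CC chemokine gene, had 3.11, 3.26, 2.96 and 2.98 CPM in Nbeal2-/- and 10.3, 10, 9.91 and 10.3 CPM in WT (log2 fold change -1.72, SE 0.06, adjusted p = 1.33e-11). Ccl3, its neighbour and relative, fell 3.23-fold. Cytokines and growth factors leaned the other way, with 9 of 24 risen and 5 fallen. Lif, an IL-6 family cytokine, had 610, 562, 598 and 504 CPM in Nbeal2-/- and 341, 349, 286 and 324 CPM in WT, and rose 1.75-fold (log2 fold change 0.81, SE 0.10, adjusted p = 2.1e-05). Tnf, which mast cells store in granules, rose to 15.5 ± 1.52 CPM in Nbeal2-/-, against 12 ± 0.628 CPM in WT. Il13, a type 2 cytokine, fell to 4.66 ± 0.537 CPM in Nbeal2-/-, against 9.72 ± 1.88 CPM in WT, and Vegfa fell 1.68-fold.

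Receptor lists differed in how many members fell. Of 45 cytokine receptor, STAT and SOCS genes 21 fell (46.7%) and 2 rose, with a median of -0.20. Il18rap, a chain of the IL-18 receptor, had 32.5, 39.2, 40.6 and 38.1 CPM in Nbeal2-/- and 87.7, 94.5, 74.3 and 95.4 CPM in WT, and fell 2.34-fold (-1.23 on the log2 scale, SE 0.10, adjusted p = 2.84e-07). Il7r fell 4.26-fold and Il10ra 1.53-fold. Some other receptor lists lay nearer the background of 17.5%. Toll-like and scavenger receptors had 1 risen and 2 fallen (18.2%) of 11, and genes of the TNF superfamily and its receptors 4 risen and 5 fallen (20.8%) of 24. The falls were 1 of 11 without replicate 4 of WT or replicate 2 or 3 of Nbeal2-/-. They were 3 of 24 without replicate 2 of WT or replicate 2 or 4 of Nbeal2-/- and in a fit of the 8 untreated libraries alone. Purinergic, adenosine and other G protein-coupled receptors had 5 risen and 8 fallen of 20. Chemokine receptors had 2 risen and 2 fallen (13.3% each) of 15, and the eotaxin receptor gene Ccr3 fell to 7.35 ± 0.874 CPM in Nbeal2-/-, against 18.6 ± 1.33 CPM in WT.

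Inhibitory and immunoglobulin-like receptors had 2 risen and 20 fallen (64.5%) of 31, with a median of -0.32. Cd33, a sialic acid-binding inhibitory receptor, had 11.5, 17.3, 16.9 and 15.3 CPM in Nbeal2-/- and 34.7, 54, 42.8 and 45.4 CPM in WT. It fell 2.89-fold (-1.53 on the log2 scale, SE 0.13, adjusted p = 3.07e-07), and the collagen receptor gene Lair1 fell 1.97-fold. Fcgr2b, the inhibitory IgG receptor, fell 1.51-fold and Pirb, an MHC class I receptor of a near-identical family, 1.55-fold. Of 17 semaphorin, plexin and neurotrophin receptor genes 12 fell (70.6%) and none rose, with a median of -0.57. Among them Plxnd1 stood at 29.7 ± 2.47 CPM in Nbeal2-/- and 57.3 ± 6.26 CPM in WT (adjusted p = 2.42e-07), and Sema4a fell 1.80-fold.

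Adhesion genes had 3 risen and 11 fallen of 26, and tetraspanins 3 risen and 9 fallen of 18. Itgb2, the beta chain of the leukocyte integrins, fell to 12 ± 0.587 CPM in Nbeal2-/-, against 21 ± 0.925 CPM in WT. The fibronectin receptor chain Itga5 rose instead, to 64.3 ± 1.57 CPM in Nbeal2-/-, against 47.4 ± 1.90 CPM in WT. Tspan32 fell 3.59-fold and Tspan2 2.28-fold. Of 24 calcium entry and ion channel genes 11 fell, or 7 in a fit of the 8 untreated libraries alone. None rose, or 1 without replicate 1 of Nbeal2-/- or of both genotypes. The potassium channel gene Kcnj2 fell 3.21-fold, the cation channel gene Trpm2 2.28-fold and the inositol trisphosphate receptor gene Itpr3 1.66-fold.

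Immediate early and feedback genes of MAP kinase signalling had 13 risen (41.9%) and 4 fallen of 31, with a median of 0.14. Myc, a transcription factor of growth, had 301, 271, 262 and 244 CPM in Nbeal2-/-, against 166, 168, 168 and 169 CPM in WT. It rose 1.61-fold (log2 fold change 0.68, SE 0.05, adjusted p = 1.09e-07), and the WT libraries agreed closely. Junb, an AP-1 subunit, stood at 539 ± 59.2 CPM in Nbeal2-/- and 305 ± 52.5 CPM in WT. Egr1 rose 1.63-fold and Ier2 1.80-fold. The ERK feedback genes Dusp6 and Spred2 rose 1.42-fold and 1.52-fold. NF-kB subunits and feedback genes had 3 risen, 11 fallen (36.7%) and 16 not called of 30, with a median of -0.08. In a fit of the 8 untreated libraries alone 7 fell. Tnfaip3, the ubiquitin editor A20, fell 1.52-fold and Rel 1.28-fold, while Nfkb1 rose 1.18-fold.

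Among 29 lineage transcription factors 4 rose (13.8%) and 7 fell (24.1%), or 4 fell in a fit of the 8 untreated libraries alone. Id2, an inhibitor of E proteins, fell to 185 ± 18.8 CPM in Nbeal2-/-, against 272 ± 15 CPM in WT, and Gfi1 fell 1.39-fold. Meis1, a factor of blood progenitors, rose to 64.8 ± 7.05 CPM in Nbeal2-/-, against 46.1 ± 2.92 CPM in WT, whereas the progenitor antigen gene Cd34 fell 1.34-fold.

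Growth genes rose together, by small steps. Of 29 genes of ribosome biogenesis 28 rose (96.6%) and none fell, with a median of 0.41. Ncl, nucleolin, had 654, 630, 630 and 636 CPM in Nbeal2-/- and 499, 454, 483 and 452 CPM in WT, and rose 1.35-fold (log2 fold change 0.43, SE 0.05, adjusted p = 1.13e-05). Dkc1, the pseudouridine synthase of small nucleolar particles, rose 1.53-fold and Nop56, a core protein of those particles, 1.36-fold. Myc is on this list too. Of 35 DNA replication genes 31 rose (88.6%) and none fell, with a median of 0.26. Orc1, which marks replication origins, rose 1.41-fold, the thymidylate synthase gene Tyms 1.44-fold and the helicase subunit gene Mcm6 1.21-fold.

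Of 30 mitosis and spindle genes 25 rose (83.3%) and none fell, with a median of 0.39. Cdc20, the activator of the anaphase-promoting complex, had 64.6, 60.5, 61.3 and 61.1 CPM in Nbeal2-/- and 42.1, 35.4, 33.6 and 40.9 CPM in WT, and rose 1.63-fold (log2 fold change 0.70, SE 0.08, adjusted p = 6.22e-06). The cyclin gene Ccnb1 rose 1.45-fold, the kinesin gene Kif2c 1.45-fold and Plk1, a kinase of mitosis, 1.42-fold. Mki67, the gene of the Ki-67 antigen, did not pass, at 376 ± 45.3 CPM in Nbeal2-/- and 320 ± 46 CPM in WT (log2 fold change 0.23, adjusted p = 0.0863). It passed without replicate 1 of Nbeal2-/- (adjusted p = 0.0247), without both replicates 1 (adjusted p = 0.0364) and without replicate 4 of WT (adjusted p = 0.0366). Genes that control entry into S phase did not move as a block, with 5 risen and 3 fallen of 15. In a fit of the 8 untreated libraries alone 2 rose. Without replicate 2 or 4 of WT 3 and 2 rose, and without replicates 1 and 2 of WT 5 and 1 fell. Trp53 rose 1.34-fold, Ccnd2, the cyclin D2 gene, fell 1.36-fold, and the CDK inhibitor gene Cdkn1b fell 1.18-fold with an adjusted p of 0.0133, or 0.0522 without replicate 2 of WT.

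**Figure D4:**
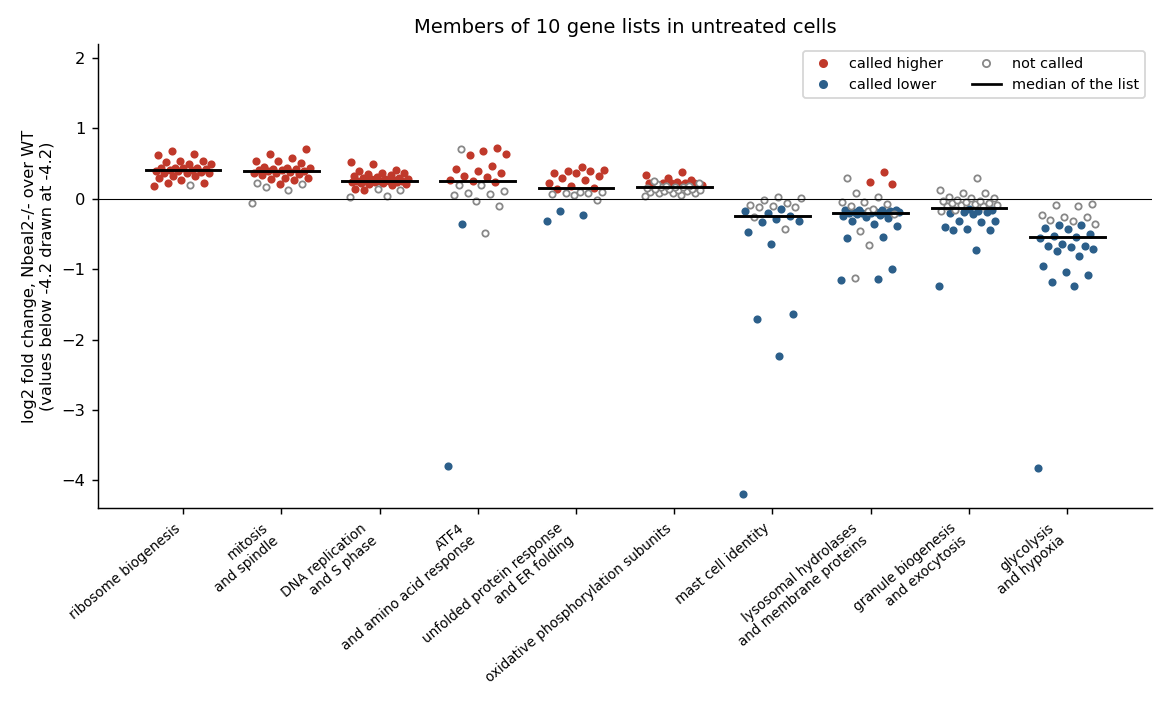
Each point is 1 tested gene of the list named below it, with its log2 fold change, Nbeal2-/- over WT, on the y axis. Filled red points were called higher, filled blue points called lower and open points not called, and black bars are medians. Ribosome biogenesis lies above 0 (median 0.41) and glycolysis and hypoxia below 0 (median -0.54), and Mrgprb1 in the mast cell list is drawn at the lower edge.

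Glycolysis and hypoxia genes moved the opposite way. Of 30 tested 21 fell (70.0%) and none rose, with a median of -0.54. The count was 13 without replicate 1 of WT and 11 without replicate 1 of both genotypes, while all 30 members had a negative log2 fold change in the full fit. Pfkp, a phosphofructokinase, had 236, 268, 284 and 242 CPM in Nbeal2-/- and 410, 478, 368 and 436 CPM in WT, and fell 1.64-fold (-0.72 on the log2 scale, SE 0.09, adjusted p = 2.02e-05). Hk2, hexokinase 2, had 79.2, 77, 89 and 76 CPM in Nbeal2-/- and 153, 134, 98.5 and 130 CPM in WT (log2 fold change -0.68, SE 0.11, adjusted p = 0.000162). Replicate 3 of WT was the lowest WT library for both.

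Several members spread more than that within a genotype. Pdk1, which keeps pyruvate out of mitochondria, had 41.5, 26.3, 42.8 and 23.8 CPM in Nbeal2-/- and 101, 74.9, 42.7 and 87.3 CPM in WT (log2 fold change -1.19, SE 0.28, adjusted p = 0.00468), and the groups overlapped at replicate 3. Ankrd37, a hypoxia-induced gene, had 3.83, 2.47, 3.37 and 2.44 CPM in Nbeal2-/- and 9.21, 6.29, 3.61 and 6.32 CPM in WT, and replicates 1 of Nbeal2-/- and 3 of WT overlapped. Pkm, pyruvate kinase, stood at 1292 ± 258 CPM in Nbeal2-/- and 2012 ± 545 CPM in WT (adjusted p = 0.0189). Its adjusted p was 0.0635 without replicate 1 of WT, 0.0557 without replicate 2 of Nbeal2-/-, 0.0562 without replicate 4 of Nbeal2-/-, 0.0571 without replicate 4 of WT, 0.0556 without both replicates 1 and 0.0636 with no filter on low counts. Aldoa, aldolase A, fell 1.45-fold, and its adjusted p was 0.0507 with no filter. Replicates 1 and 3 of Nbeal2-/- were the higher libraries of their genotype for Pdk1, Ankrd37, Pkm and Aldoa, and replicate 3 was the lowest WT library. Whether the density or oxygen supply of the cultures differed was not measured.

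Hypoxia-inducible factors bind DNA at a core written ACGTG, and MYC and related factors at the E-box CACGTG, which contains that core. Promoter windows of RefSeq on GRCm38.p6 run from 250 bases before to 50 after a gene's start. Read on both strands, ACGTG stood in 19 of 27 glycolysis and hypoxia genes with a window (70.4%), against 29.2% of the genes tested that have one and 21.8% of all genes with one. It stood in 13 of 18 members that fell (72.2%) and 6 of 9 that were not called (66.7%), and in 30.2% of all genes called lower and 32.2% of those called higher. The E-box stood in 7 of 23 ribosome biogenesis genes (30.4%), against 11.6% of the genes tested and 8.09% of all genes. Its share was 14.2% among all genes called higher and 11.7% among those called lower. These are matches of letters in a window and not binding sites. The windows of 3 hypoxia genes described here and of the 2 ribosome biogenesis genes with an E-box and the smallest p are printed 5′ to 3′ on the strand of the gene, with the match in capitals (ACGTG or its reverse complement CACGT in the first 3, CACGTG in the last 2). Ankrd37, Egln3 and Hk2 have 2, 1 and 2 matches. They were chosen by hand, and Pfkp and Pdk1, also described above, are not among the 19 genes with a match. The printed windows therefore do not stand for the list.
Egln3, chr12:54203825-54204124, minus strand: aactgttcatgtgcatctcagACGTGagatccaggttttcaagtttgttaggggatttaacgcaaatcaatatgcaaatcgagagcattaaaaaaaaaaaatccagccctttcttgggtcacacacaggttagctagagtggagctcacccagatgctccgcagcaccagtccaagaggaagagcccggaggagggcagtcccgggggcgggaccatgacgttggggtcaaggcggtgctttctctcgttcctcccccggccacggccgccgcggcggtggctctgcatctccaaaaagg
Ankrd37, chr8:45999801-46000100, minus strand: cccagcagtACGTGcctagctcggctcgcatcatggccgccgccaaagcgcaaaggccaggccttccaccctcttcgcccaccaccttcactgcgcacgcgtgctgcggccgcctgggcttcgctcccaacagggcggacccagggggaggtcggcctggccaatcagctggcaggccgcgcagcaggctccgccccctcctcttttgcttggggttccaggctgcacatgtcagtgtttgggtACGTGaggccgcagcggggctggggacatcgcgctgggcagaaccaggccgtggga
Hk2, chr6:82774405-82774704, minus strand: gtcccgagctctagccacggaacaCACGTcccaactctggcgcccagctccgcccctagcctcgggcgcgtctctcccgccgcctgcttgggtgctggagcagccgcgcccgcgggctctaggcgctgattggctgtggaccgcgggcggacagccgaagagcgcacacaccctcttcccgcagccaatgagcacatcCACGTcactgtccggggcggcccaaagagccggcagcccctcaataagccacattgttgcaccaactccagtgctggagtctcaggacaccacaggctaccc
Wdr43, chr17:71615965-71616264, plus strand: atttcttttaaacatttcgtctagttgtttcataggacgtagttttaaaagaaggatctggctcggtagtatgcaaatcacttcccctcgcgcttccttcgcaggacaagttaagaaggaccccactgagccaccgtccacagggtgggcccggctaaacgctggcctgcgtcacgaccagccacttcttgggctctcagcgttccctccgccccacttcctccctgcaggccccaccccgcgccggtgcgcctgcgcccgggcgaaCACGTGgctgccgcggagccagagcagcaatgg
Mybbp1a, chr11:72441077-72441376, plus strand: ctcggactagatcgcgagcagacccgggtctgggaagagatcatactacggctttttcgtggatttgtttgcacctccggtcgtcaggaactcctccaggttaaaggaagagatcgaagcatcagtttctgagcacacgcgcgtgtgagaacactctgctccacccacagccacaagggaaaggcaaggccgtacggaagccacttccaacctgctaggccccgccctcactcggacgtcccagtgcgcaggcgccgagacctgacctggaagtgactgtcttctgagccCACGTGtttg

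Wdr43 and Mybbp1a were picked by p from a list in which 28 of 29 genes rose, so their rise says nothing about the E-box. Wdr43, a factor of small ribosomal subunit assembly, stood at 93.5 ± 3.07 CPM in Nbeal2-/- and 71.4 ± 5.78 CPM in WT (adjusted p = 0.000163). Mybbp1a, a nucleolar protein gene, stood at 240.4 ± 15.7 CPM in Nbeal2-/- and 182 ± 16.5 CPM in WT (adjusted p = 0.000314).

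All 36 oxidative phosphorylation subunits had a positive log2 fold change (median 0.17), and 14 of them rose by the test. That count depends on single libraries. It was 29 without replicate 1 of WT, 27 without replicate 1 of both genotypes, 8 without replicate 2, 9 without replicate 3 and 8 without replicate 4 of WT, 8 without replicate 1 of Nbeal2-/-, and 6 when only the 8 untreated libraries were fitted. Cyc1, cytochrome c1, rose to 90.8 ± 5.19 CPM in Nbeal2-/-, against 71.6 ± 3.55 CPM in WT. Atp5b, the catalytic subunit of ATP synthase, rose 1.22-fold.

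Genes of protein folding and amino acid supply rose more often than genes at large. Of 23 unfolded protein response genes 13 rose (56.5%) and 3 fell, with a median of 0.15. The falls numbered 0 without replicate 2 of WT and in a fit of the 8 untreated libraries alone, and 1 without replicate 4 of WT, replicate 1 of Nbeal2-/- or replicate 4 of Nbeal2-/-. Hspa5, the chaperone BiP, had 1256, 1167, 1151 and 1183 CPM in Nbeal2-/- and 940, 865, 923 and 885 CPM in WT, and rose 1.32-fold (log2 fold change 0.40, SE 0.05, adjusted p = 2.58e-05). Calreticulin gene Calr rose 1.33-fold and the transcription factor gene Xbp1 1.20-fold. Of 25 genes of the ATF4 and amino acid response 13 rose (52.0%) and 2 fell. Psat1 and Shmt2, enzymes of serine and one-carbon metabolism, rose 1.65-fold and 1.54-fold. The leucine transporter gene Slc7a5 had 110, 124, 103 and 117 CPM in Nbeal2-/- and 62.2, 68, 81.9 and 69.7 CPM in WT (log2 fold change 0.69, SE 0.07, adjusted p = 3.28e-06). Asns, asparagine synthetase, rose 1.56-fold.

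Sterol and fatty acid genes stayed near the background, with 4 risen and 5 fallen of 34. Without replicate 1 of WT 7 rose. Falls numbered 1 without replicate 4 of WT, 2 without replicate 2 of WT or replicate 2 or 4 of Nbeal2-/-, and 3 without replicate 3 of WT or in a fit of the 8 untreated libraries alone. The desaturase genes Fads2 and Scd1 rose 1.46-fold and 1.80-fold. Interferon-stimulated genes had 4 risen and 5 fallen of 27, with 3 fallen without replicate 3 of WT or in the fit of 8 libraries and 8 without replicate 3 of Nbeal2-/-. Gbp4 fell 2.55-fold. Of 16 iron genes 1 rose (6.25%) and 2 fell (12.5%). Without replicate 3 of WT 2 rose, and falls numbered 4 without both replicates 1 and 1 without replicate 4 of Nbeal2-/- or in the fit of 8 libraries. The gene that rose was the transferrin receptor gene Tfrc, at 134 ± 7.69 CPM in Nbeal2-/- and 92.3 ± 3.12 CPM in WT.

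Markers of other cell types were read over whole lists, summed as CPM of the library total. Platelet markers summed to 2321 to 2499 CPM in Nbeal2-/- and 2618 to 2789 CPM in WT, most of it Itga2b, a platelet integrin chain, which did not pass (1946 ± 118 CPM in Nbeal2-/- and 2091 ± 39.5 CPM in WT). It passed without replicate 1 of Nbeal2-/- (adjusted p = 0.0113) or of both genotypes (0.00493), with DESeq2 (0.0120), with RLE factors (0.0427) and with a stricter filter on low counts (0.0302). Of 5 tested, Vwf and the platelet glycoprotein gene Gp5 fell. Among defining markers, Gp6, Ppbp, Treml1 and Clec1b had no count in any untreated library. Basophil markers, some of which are also mast cell genes, summed to 7531 to 8366 CPM in Nbeal2-/- and 7881 to 8901 CPM in WT, and 5 of 10 fell, or 3 without replicate 3 or 4 of WT, without both replicates 1 or in the fit of 8 libraries. Cd200r3 fell 1.22-fold.

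Monocyte and macrophage markers summed to 499.6 to 833 CPM in Nbeal2-/- and 343 to 981 CPM in WT, ranges that overlap. Most of it was Ccr2 and Cx3cr1, and 7 of 14 stayed below 1 CPM in every library. Of 8 tested 1 rose and 2 fell, and the falls ran from 1 to 3 when single libraries were left out. Adgre1, the F4/80 antigen gene, had 18.8, 27.4, 24.1 and 30.6 CPM in Nbeal2-/- and 8.63, 8.96, 8.68 and 7.41 CPM in WT, a 3.00-fold rise (log2 fold change 1.59, SE 0.13, adjusted p = 2.32e-07). Cd68 fell 1.48-fold, and the defining receptor gene Csf1r was near 0, at 0.102 ± 0.0901 CPM in Nbeal2-/- and 0.284 ± 0.193 CPM in WT. It did not pass, except without replicate 1 of Nbeal2-/- (adjusted p = 0.0302) or replicate 2 of WT (adjusted p = 0.0467). Eosinophil markers summed to 8.14 to 11.1 CPM in Nbeal2-/- and 19.5 to 21.4 CPM in WT, most of it Ccr3, and Epx and Prg3 had no count. Progenitor markers summed to 1605 to 1752 CPM in Nbeal2-/- and 1684 to 1838 CPM in WT, with 1 of 8 risen, or 2 without replicate 3 of WT or both replicates 1, and 2 fallen. Erythroid markers summed to between 138 and 159 CPM in Nbeal2-/- and between 97.7 and 104 CPM in WT, most of it Tfrc. Of 7 tested 3 rose, or 1 without replicate 2 or 3 of WT, replicate 4 of Nbeal2-/- or both replicates 1, and in the fit of 8 libraries, and Slc4a1 had no count. The globin gene Hba-a1, with a near-identical copy, stood at 1.3 ± 0.378 CPM in Nbeal2-/- and 0.569 ± 0.406 CPM in WT, and lost its call without replicate 1 of Nbeal2-/- (adjusted p = 0.0624), replicate 2 of WT (0.0748), replicate 3 of WT (0.0671), replicate 4 of Nbeal2-/- (0.0619) or both replicates 1 (0.111), and in the fit of 8 libraries (0.0630). The part of these markers in the other results was not tested.

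Genes close to Nbeal2 were examined because a targeted allele can carry flanking DNA of the embryonic stem cell line. Within 5 Mb, 30.4% of 135 tested genes were called, 19 higher and 22 lower, against 36.3% on the rest of chromosome 9 and 35.9% on other chromosomes. Over 2-fold changes were called for 5 of them (3.70%), against 3.33% on other chromosomes. They include Glb1, among the falling lysosomal genes above, which lies 3.80 Mb away. Whether flanking DNA bears on these differences was not tested.

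The last comparison asked whether the difference between genotypes in untreated cells differed from that in cells given IL-33, an alarmin cytokine that activates mast cells. With IL-33, 1730 genes were called between the genotypes (11.2%), 849 higher (5.49%) and 881 lower (5.69%) in Nbeal2-/-. Called in both conditions were 1224 genes, 1148 in the same direction, which is 20.7% of the untreated calls and 66.4% of the IL-33 calls. The difference between the genotype effects itself was called for 706 genes (4.56%). Of these 595 were also called in untreated cells, and for 583 of them the effect was nearer 0 or reversed with IL-33. That direction is favoured in advance, since the untreated effect is subtracted in the difference and these genes were selected for a called untreated effect. The count of 706 was 1170 without replicate 1 of untreated WT, 463 without replicate 2 of untreated WT and 461 without replicate 4 of untreated Nbeal2-/-. Untreated and IL-33 libraries of 1 genotype and number resembled each other, and a fit with that pairing as a replicate block called 932, of which 633 are among the 706.

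**Figure D5:**
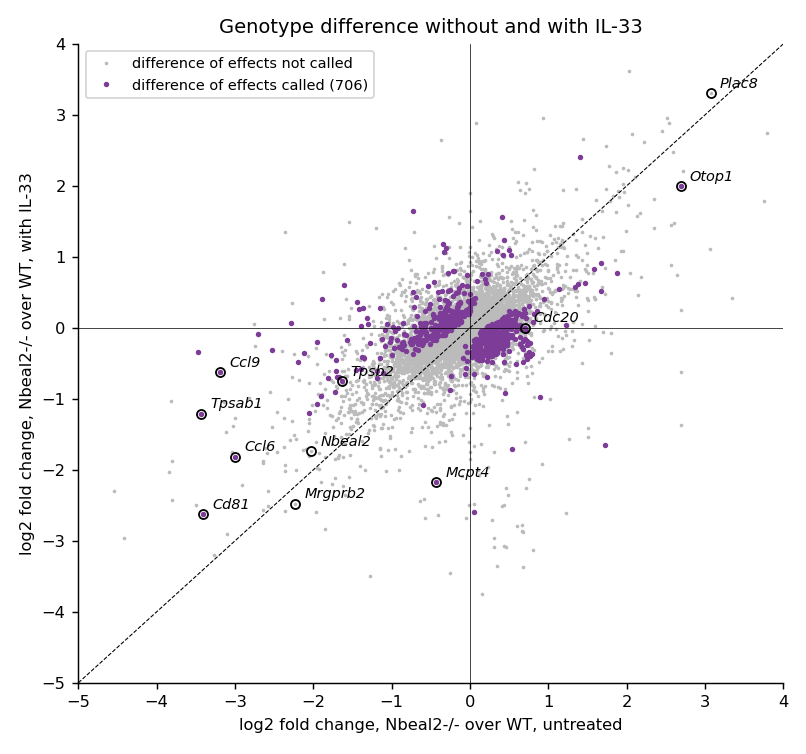
Each point is 1 gene, with its log2 fold change, Nbeal2-/- over WT, in untreated cells on the x axis and with IL-33 on the y axis. Purple points (706) have a called difference between both effects, and the dashed line marks equal effects. Plac8 and Nbeal2 lie near that line, Ccl9 and Tpsab1 lie nearer 0 with IL-33, Mcpt4 lies farther from 0 with IL-33, and 4 genes lie outside the axes.

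Ccl9 had 75.2, 94.7, 83.1 and 65.8 CPM in Nbeal2-/- with IL-33 and 133, 122, 116 and 120 CPM in WT with IL-33. Its genotype effect was -0.62 on the log2 scale with IL-33 and -3.19 without (difference 2.57, adjusted p = 9.2e-06). Ccl6 had an effect of -1.82 with IL-33 and -3.00 without (difference 1.18, adjusted p = 0.00177). Tpsb2 had 12120, 9018, 11920 and 11280 CPM in Nbeal2-/- with IL-33, against 17700, 19340, 19520 and 17950 CPM in WT with IL-33, and effects of -0.75 with and -1.64 without (difference 0.89, adjusted p = 0.0113). The chymase gene Mcpt4 went the other way. Without IL-33 it stood at 2.92 ± 0.544 CPM in Nbeal2-/- and 3.95 ± 1.48 CPM in WT and did not pass (log2 fold change -0.43, adjusted p = 0.133). With IL-33 it had 51.4, 57, 52.1 and 59.9 CPM in Nbeal2-/- and 224, 259, 298 and 213 CPM in WT (log2 fold change -2.17, difference -1.74, adjusted p of the difference 0.0024).

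Growth genes differed between conditions as well. Of 30 mitosis and spindle genes the difference was called for 27, all negative, as for 395 of all genes (2.55%). None of them rose and 8 fell in Nbeal2-/- with IL-33, and their median log2 fold change was -0.19 with IL-33 and 0.39 without. Of 35 DNA replication genes 27 had a called difference, all negative, with 11 fallen and none risen with IL-33. Ribosome biogenesis had 4 of 29, all negative, or 2 without replicate 2 or 4 of WT or replicate 4 of Nbeal2-/- and 6 without replicate 1 or 3 of WT. Cdc20 had 26.1, 25.5, 26.6 and 28.2 CPM in Nbeal2-/- with IL-33 and 25.9, 27.4, 22.6 and 29.9 CPM in WT with IL-33, ranges that overlap. Its effect without IL-33 exceeded that with IL-33 (difference -0.70, adjusted p = 0.0024). Myc had an effect of 0.27 with IL-33 and 0.68 without (difference -0.41, adjusted p = 0.00358). Of 30 glycolysis and hypoxia genes 2 had a called difference, both positive, as for 2.01% of all genes, and 17 in the fit with the replicate block within each genotype, all positive. Their median was -0.12 with IL-33 and -0.54 without. Egln3 had a difference of 2.79 (adjusted p = 0.0667, or 0.000666 with that block) and Hk2 of 0.51 (adjusted p = 0.0659, or 0.0155 with that block). The count of 2 was 1 without replicate 2 or 4 of either genotype or replicate 1 of Nbeal2-/-, and 5 without replicate 3 of WT.

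For Nbeal2, Kit, Plac8 and Mrgprb2 the difference between the effects did not pass. Their effects were -1.74, -0.51, 3.31 and -2.48 with IL-33 and -2.02, -0.64, 3.07 and -2.23 without.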

How the data were processed

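The authors deposited a raw count for each gene and library, together with RPM and RPKM. Their RPM equalled counts scaled by the column total (largest difference 4.91e-11). Deposited RPKM values entered no test. Per the labels' protocols, Qiazol RNA was made into strand-specific poly(A) libraries. Per the submitters' processing notes, bcl2fastq 2.20.0.422, featureCounts 1.6.5 and build GRCm38 were used. The sources used here give neither aligner, annotation release nor strand setting, so overlapping, antisense and near-identical genes are uncertain.

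Of 55487 genes 29066 had no count in any library, and 15470 were kept by filterByExpr. R 4.3.3 and edgeR 4.0.16 fitted 4 group means to all 16 libraries (TMM, robust quasi-likelihood, common biological coefficient of variation 9.56%). The contrasts were Nbeal2-/- minus WT without IL-33, the same with IL-33, and their difference. A gene at 1 CPM rests on at least 39.1 counts in each untreated library, and the floor of 3 counts covers counting error only. Each SE is the size of the log2 fold change divided by the square root of the test's F. It thus includes the spread among libraries. Libraries of a group differed beyond sampling noise (smallest chi-square per degree of freedom 7.65), so each counted as 1 sample. GENCODE M21 gave positions for 15457 of the genes tested.

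Named genes are Nbeal2, the 10 largest rises and 10 largest falls (called, at least 5 CPM in the higher group, no overlap, no predicted genes), the 10 largest differences of mean CPM, and, from every list, up to 4 called genes by p. Not every gene so named is printed, and some genes are not reported here. Fcer1a, Ms4a2, Gata2, Mcpt4, Mrgprb1, Slc18a2, Itga2b, Il13, Egr1, Ier2, Mki67, Pdk1, Ankrd37, Csf1r, Wdr43 and Mybbp1a were added after their values were seen. The members and lists were chosen with earlier results of these data known. Alternatives were DESeq2 1.42.0, RLE factors, no or a stricter low-count filter, limma 3.58.1 on log2(RPM + 1), a replicate block, a Y-linked covariate, the 8 untreated libraries alone, each library left out and, chosen after seeing the data, both untreated libraries numbered 1 left out and a replicate block within each genotype. Within a genotype the numbers pair untreated with IL-33 libraries, since deviations from the group means correlated at 0.171 to 0.369 for the same number and each untreated library correlated best with its own number.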

Additional observations from a re-analysis of the deposited data

Results flagged for a closer look

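Some libraries stood apart from the other 3 of their group, by a gap test that chance meets in about 1 in 20 groups. Many genes were read in both genotypes, so gaps like these are to be met by chance alone, and none is a result by itself. In WT, replicate 1 was low for Nbeal2 (224 CPM) and, by a small margin, for Myc (166 CPM, against 168 to 169 CPM in the other WT libraries). Replicate 2 was high for Itga2b (2150 CPM) and Gfi1 (36.7 CPM) and low for Tspan32 (5.67 CPM). Replicate 4 was high for Tpsab1 (4.23 CPM), Itga5 (50.2 CPM) and C1qtnf1 (1.93 CPM). In Nbeal2-/-, replicate 1 was low for Atp6v1a (86 CPM) and Lair1 (9.5 CPM) and high for Calr (1578 CPM), replicate 2 was low for Scd1 (35.5 CPM), and replicate 3 was high for Itgb2 (12.9 CPM).

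For other genes the genotype effect with IL-33 differed from that without by edgeR's quasi-likelihood test of the difference (adjusted p below 0.05 over all genes). The replicate block within genotype also called the difference for Slc6a4, Vegfa, Cd9, Lif, Il13, Ccr3, Egr1, Trp53 and Cdkn1b. It did so too for Hk2, Pdk1, Egln3, Ankrd37, Pkm, Aldoa, Shmt2 and Cd200r3. Values below come from the fit without that block, as the log2 fold change with IL-33 minus that without. Among chemokines and cytokines they were 2.57 for Ccl9, 1.18 for Ccl6, 0.99 for Ccl3, 0.83 for Ccl4 and -0.51 for Tnf. Granule and secretion genes gave -1.74 for Mcpt4, 2.23 for Tpsab1, 0.89 for Tpsb2, 0.55 for Tpsg1, -0.62 for Serpinb1a, 0.31 for Csgalnact2, 0.57 for Vwf, 0.40 for Sytl3 and 0.51 for Atp6v0a1. Surface proteins gave 0.57 for Il10ra, 0.46 for Pirb, 0.66 for Fcgr2b, 0.92 for Sema4a, -0.31 for Itga5, 0.30 for Cd34, 0.78 for Cd81, 0.49 for Tspan2, -0.76 for Adgre1, -0.44 for Tfrc, -0.70 for Otop1 and 0.32 for Ifitm1.

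Signalling genes gave -0.34 for Ptpn6, -0.41 for Myc, -0.40 for Spred2 (adjusted p = 0.0449, or 0.0777 with the replicate block within genotype), -0.62 for Junb, -0.61 for Ier2 and 0.43 for Tnfaip3. The growth genes given here had negative values, with -0.70 for Cdc20, -0.67 for Kif2c, -0.63 for Ccnb1, -0.62 for Plk1, -0.54 for Mki67, -0.49 for Orc1, -0.54 for Tyms, -0.35 for Mcm6, -0.28 for Ncl, -0.41 for Dkc1 and -0.35 for Nop56. The remaining values were -0.31 for Cyc1 and -0.28 for Calr.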

How the results depend on the processing

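Between 3836 genes (only the 8 untreated libraries) and 6329 (without replicate 1 of WT) were called under the alternatives, against 5549 as reported. The over 2-fold count of 521 was 329 with the stricter filter and 158 with limma on log2(RPM + 1), a scale that shrinks low genes by construction. The count for the difference of genotype effects, 706 as reported, was 1207 with DESeq2 and 1547 with both untreated libraries numbered 1 left out, and ran from 461 to 1170 when single libraries were left out. The cause was not tested. The share of calls that were higher, 51.2%, ran from 48.0% to 56.4%. No named gene that was called changed sign under any of these alternatives, but 7 lost their call in the fit of the 8 untreated libraries and 6 with no low-count filter.

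The labels do not say whether replicate numbers pair the libraries of the 2 genotypes. Same-numbered deviations correlated at 0.51 for replicates 1, which also stood apart in the principal component analysis. For replicates 2, 3 and 4 they correlated at 0.16, -0.03 and 0.07. With the replicate block 5938 genes were called, 3022 higher and 2916 lower, with 538 over 2-fold and 857 for the difference of effects. Not every library correlated best with its own number. Untreated and IL-33 libraries of 1 genotype are paired, and with a replicate block within genotype 932 genes were called for the difference of effects. The fit of all 16 libraries treats these pairs as independent, while the fit of the 8 untreated libraries holds 1 of each pair.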
